A study of Homo sapiens with 4 samples.

Results

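Kruppel-like factors are transcription factors with 3 zinc fingers at the end of the protein, which bind GC boxes and CACCC boxes in the promoters of other genes. The 10 described here are KLF2, KLF4, KLF5, KLF6, KLF7, KLF9, KLF10, KLF11, KLF13 and KLF16, out of 18 KLF genes and 60719 genes in the count tables, and each was found by its symbol under a single Ensembl identifier. They were chosen by the measured d27 and WT values of an earlier analysis of these same libraries, so their differences between the constructs are given as a description. No p-value of a member is printed. Members that passed the threshold are called so as a label, and nothing is read from those calls.

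The cells were SKNAS (SK-N-AS), a long-established neuroblastoma line of human origin, transfected with V5-tagged KIF5A and used for immunoprecipitation a day later. KIF5A is a heavy chain of kinesin-1, a motor that walks along microtubules, and V5 is a short peptide tag by which antibody-coated beads pull the protein and its bound RNA from a lysate. One group received V5-WT KIF5A and the other V5-d27 KIF5A, the mutant form that the series title places among those linked to amyotrophic lateral sclerosis (ALS), with 2 precipitates each. All 4 precipitates came from cells that carry an added KIF5A construct on top of their own gene. No input or mock library is used here, so more of a transcript in the cells and more of it bound to the motor cannot be told apart, nor can fewer cells of a kind and less RNA per cell.

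The family falls into 3 branches. KLF2, KLF4, KLF5, KLF6 and KLF7 belong to the branch of mostly activating factors, which recruit acetyltransferases. KLF9, KLF10, KLF11, KLF13 and KLF16 bind the SIN3A corepressor through a short helix and mostly repress. KLF3, KLF8 and KLF12 form the branch that binds the corepressor CTBP. Several KLF genes, KLF4, KLF6 and KLF10 among them, are known to be switched on within a short time of a growth factor, serum or stress signal, and their mRNAs are short-lived.

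The promoters of the genes give a picture of what the family shares and where it differs. RefSeq windows of 300 bases (250 before the start and the rest after it, GRCh38.p14) were at hand for 9 members, in 14 windows, since some genes start at several places. The stretches shown lie before the RefSeq start and outside every GENCODE 29 exon. They are shown for the 3 genes KLF4, KLF16 and KLF6, which were higher with d27, and for KLF13 and KLF9, whose levels were close in both groups. Capitals mark each GC box (GGGCGG on either strand) and each TGACG on either strand, the core of a cyclic AMP response element, and each stretch is written 5′ to 3′ along the strand of its gene.

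KLF4, chr9:107489770-107490019, minus strand, in an intron of a longer annotated KLF4 transcript: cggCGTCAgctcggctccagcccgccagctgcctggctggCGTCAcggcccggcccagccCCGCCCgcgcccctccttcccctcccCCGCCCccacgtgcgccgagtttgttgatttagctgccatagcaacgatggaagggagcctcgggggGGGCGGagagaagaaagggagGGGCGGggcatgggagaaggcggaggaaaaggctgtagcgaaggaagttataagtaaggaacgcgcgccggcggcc
KLF16, chr19:1863580-1863829, minus strand: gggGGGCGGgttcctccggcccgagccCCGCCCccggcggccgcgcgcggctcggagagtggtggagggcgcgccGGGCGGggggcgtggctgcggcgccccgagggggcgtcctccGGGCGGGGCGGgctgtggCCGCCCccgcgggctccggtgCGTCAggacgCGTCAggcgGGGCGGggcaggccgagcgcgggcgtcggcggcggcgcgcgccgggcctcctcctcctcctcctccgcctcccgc
KLF6, chr10:3785282-3785459, minus strand: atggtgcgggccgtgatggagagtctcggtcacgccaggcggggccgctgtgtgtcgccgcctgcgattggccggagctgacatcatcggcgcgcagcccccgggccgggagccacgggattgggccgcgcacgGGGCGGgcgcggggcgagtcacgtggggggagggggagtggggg
KLF13, chr15:31326585-31326834, plus strand: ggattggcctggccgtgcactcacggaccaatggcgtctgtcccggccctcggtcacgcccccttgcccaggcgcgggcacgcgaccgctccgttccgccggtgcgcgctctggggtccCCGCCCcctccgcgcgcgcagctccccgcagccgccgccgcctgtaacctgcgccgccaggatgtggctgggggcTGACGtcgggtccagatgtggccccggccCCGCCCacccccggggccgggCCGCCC
KLF9, chr9:70414658-70414907, minus strand: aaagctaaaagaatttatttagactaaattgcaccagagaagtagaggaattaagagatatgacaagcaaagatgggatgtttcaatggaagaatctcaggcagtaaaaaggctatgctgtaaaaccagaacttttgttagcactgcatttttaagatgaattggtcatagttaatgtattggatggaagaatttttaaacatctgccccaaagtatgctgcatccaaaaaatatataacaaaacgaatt

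The KLF16 stretch held 7 GC boxes and 2 TGACG motifs at a GC content of 86.4%, and the KLF4 stretch 4 GC boxes and 2 TGACG motifs at 69.2%. The KLF13 stretch held 3 GC boxes and 1 TGACG motif at 78.8%, the KLF6 stretch 1 GC box at 76.4%, and the KLF9 stretch neither motif at 32.4%. These 5 genes are examples, and a link of motifs or GC content to the d27 values was not tested. For genes not shown, whole windows are given. KLF5, also higher with d27, had a window of 40.7% GC with neither motif and another of 71.3% with 2 GC boxes and 1 TGACG. KLF11, whose groups overlapped, had a window of 75.3% GC with 7 GC boxes and 2 TGACG and another of 77.3% with 2 GC boxes. The KLF2 window had 80.7% GC, 6 GC boxes and no TGACG. KLF7 had windows of 42.7% to 70.0% GC without TGACG, and only that of 70.0% held GC boxes, 4 of them. Over the whole windows, 9 of the 14 held a GC box, against 45.0% of all 35116 windows in the table, and 5 held TGACG, against 24.6%. The full element TGACGTCA, which contains TGACG, stood in 1 KLF11 window only, against 1.8% of all windows. The other motifs searched, each on both strands, were CACCC (7 of 14, against 59.9%), TATAAA (a KLF5 window, against 11.5%), the CArG box (a KLF7 window, against 1.3%), the MEF2 site (the KLF2 window, against 3.0%) and the AP-1 site TGAGTCA (none, against 4.9%). A match is a run of letters, and none of these libraries measured binding to DNA.

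Counts over all genes were between 8142869 and 18335151 per library, with the highest total in d27 replicate 1. Values are CPM, read counts brought to a common library size with TMM, which evens out differences in make-up between libraries, and fold changes are d27 over WT from edgeR with a standard error (SE). KIF5A itself, to whose count the construct can add, took 9.03% and 14.8% of the WT gene counts and 10.8% and 11.2% of those in d27, replicates 1 and 2 in that order. HTSeq entries for reads given to no gene took 47.6% and 47.3% of each WT table and 25.9% and 36.8% of each d27 table. Mitochondrial transcripts made up 2.67% and 1.34% of the WT counts, and for d27 0.522% and 1.15%. Both were lower with d27, and their part in the KLF differences was not tested. Replicates were not copies of each other: their counts differed beyond sampling (chi-square over its degrees of freedom, 33.5 for WT and 19.9 for d27). The cells carried the mesenchymal neuroblastoma markers VIM and CD44 and the adrenergic one HAND2, while TH and DBH were at or near 0. The 10 mesenchymal markers summed to 3326 and 3609 CPM in WT and 3084 and 2830 in d27, and the 10 adrenergic ones to 871 and 911 against 745 and 614. The mesenchymal genes split 5 and 5 by the sign of their log2 fold change (median -0.04): CD44 stood at 625 and 366 CPM in WT and 1152 and 781 in d27, VIM at 1809 and 1861 against 1186 and 1340. Of 6 markers of other cell kinds, HBB, EPCAM and GFAP had 0 counts in every library, ALB had 1 count in all and PECAM1 34. Of the adrenergic list 9 were tested and 1 fell, and none of the 10 mesenchymal genes passed, beside 3.70% of all tested genes called lower. The leukocyte gene PTPRC, at 190 and 162 CPM in WT and 101 and 79.8 in d27, made up nearly the whole sum of that list (192 and 164 in WT, 101 and 80.1 in d27). It fell (log2 -0.96 ± 0.24 SE, edgeR adjusted p = 0.0433), a call lost with library totals (0.0769) and with any 1 of the 4 libraries left out (0.0504 to 0.204). The part of these markers in the KLF differences was not tested.

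As a family, the 10 KLF mRNAs took 471 and 370 CPM of the WT libraries and 1406 and 1195 CPM of the d27 libraries, replicates 1 and 2. The 5 genes KLF4, KLF5, KLF6, KLF10 and KLF16 made up most of that difference and together stood at 292 and 231 CPM in WT and at 1195 and 1004 in d27. KLF2, KLF7, KLF9, KLF11 and KLF13 together stood at 179 and 139 CPM in WT and 211 and 190 in d27. All 10 passed the filter on low counts, KLF2 only through its d27 counts (35 and 49, against 9 and 2 in WT). The same 5 were called higher (edgeR adjusted p under 0.05 over all 14909 genes tested) and none lower, with a median log2 fold change of 1.93 over the 10 and -0.00 over all tested genes, beside 8.00% of tested genes called higher and 3.70% called lower. With an offset for GC content and exon length the calls over all genes were 1296 higher and 959 lower, against 1192 and 551 without it, and the same 5 members were called. CPM of both d27 libraries lay above both WT libraries for 8 of the 10, beside 31.4% of tested genes. As the members were picked on this comparison, nothing is read from these counts.

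**Figure D1:**
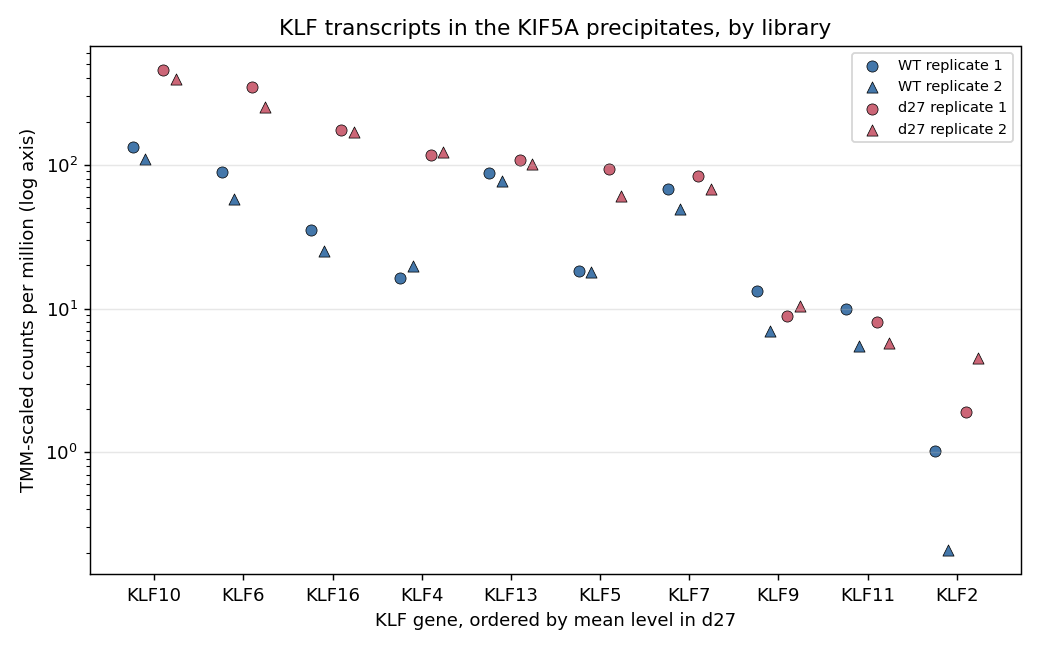
Level of each KLF transcript in the 4 libraries, as TMM-scaled CPM on a log axis, with genes ordered by their mean in d27. Blue marks are WT and red marks d27, circles replicate 1 and triangles replicate 2. For KLF10, KLF6, KLF16, KLF4 and KLF5 the lowest d27 library lay at least 2.84 times above the highest WT library, while KLF9 and KLF11 overlapped.

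Among the activating branch, KLF4 had the largest fold. KLF4 is one of the factors used to reprogram somatic cells to pluripotency and halts the cell cycle in many epithelia. It lies on chromosome 9 (GRCh38, 107484852 to 107490482, minus strand, ENSG00000136826.15) and had 142 and 190 counts in WT and 2171 and 1323 in d27. That is 16.2 and 19.7 CPM in WT and 118 and 123 CPM in d27, with means of 18.0 ± 2.54 and 121 ± 3.44 (SD, n = 2 each). The d27 libraries lay close to each other and the lower of them was 5.98 times the higher WT library. The log2 fold change was 2.75 ± 0.26 (SE), or 6.71-fold.

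KLF5, a factor of proliferating epithelial and smooth muscle cells, lies on chromosome 13 (73054976 to 73077542, plus strand). It had 160 and 172 counts in WT and 1729 and 656 in d27, or 18.2 and 17.9 CPM against 94.1 and 61.0. The WT libraries were nearly equal, and d27 replicate 1 lay above d27 replicate 2. KLF5 was 4.30-fold higher (log2 2.10 ± 0.30). In WT, KLF4 and KLF5 thus had the same mean of 18.0 CPM and the same summed count of 332, and in d27 KLF4 had 121 ± 3.44 and KLF5 77.5 ± 23.4 CPM.

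KLF6, which is widely expressed and induced by injury, lies on chromosome 10 (3775996 to 3785281, minus strand). It stood at 89.3 and 57.6 CPM in WT and at 349 and 254 CPM in d27, from 785, 554, 6412 and 2727 counts. Replicate 1 was above replicate 2 in both groups, and the lower d27 library was 2.84 times the higher WT library. KLF6 was 4.10-fold higher (log2 2.04 ± 0.31).

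KLF7 is the member of this branch best known from neurons, where it takes part in axon growth. Its gene spans 93131 bases of chromosome 2 (207074137 to 207167267, minus strand), the second longest of the 10. It had 67.6 and 49.7 CPM in WT and 83.1 and 68.1 in d27. The groups did not overlap, but d27 replicate 2 lay only 1.01 times above WT replicate 1. The log2 fold change was 0.37 ± 0.26, smaller than the difference between the WT replicates (-0.44). The gene also contains KLF7-IT1 on the same strand, with 5 to 19 counts per library and no shared exon bases.

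KLF2, which keeps endothelium and resting T cells quiescent, was the scarcest member. It had 9 and 2 counts in WT and 35 and 49 in d27, or 1.02 and 0.208 CPM against 1.90 and 4.56, beside a floor of 0.163 to 0.341 CPM for 3 counts in a library. Both d27 libraries lay above both WT libraries, yet replicates of either group differed by more than 2-fold. The log2 fold change of 2.38 had an SE of 0.99, the widest of the 10, and ran from 1.65 without WT replicate 2 or without d27 replicate 2 to 3.92 without WT replicate 1. The fit without WT replicate 1 rests on the WT library that had 2 counts of KLF2.

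In the SIN3A-binding branch, KLF10 was the most abundant member in every library. KLF10, first described as a gene induced early by TGF-beta, lies on chromosome 8 (102648779 to 102655902, minus strand). It had 1165 and 1063 counts in WT and 8413 and 4279 in d27, which is 133 and 110 CPM against 458 and 398. The lower d27 library was 3.00 times the higher WT library. The log2 fold change of 1.82 ± 0.25 (3.52-fold) was the smallest among the 5 that were called.

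KLF16, known as a regulator of dopamine receptor genes, lies on chromosome 19 (1852399 to 1863568, minus strand). It stood at 35.3 and 25.3 CPM in WT and 176 and 169 CPM in d27, from 310, 243, 3238 and 1819 counts. The d27 mean was 173 ± 5.01 CPM (SD, n = 2), and the lower of them was 4.79 times the higher WT library. KLF16 was 5.71-fold higher (log2 2.51 ± 0.27), second to KLF4 among the 10. KLF16 mRNA has the highest GC content of the 10 (70.3%), while KLF5, which was also higher, has the lowest (44.3%). It overlaps the antisense gene AC012615.3 over 483 exon bases, but that gene had 0 counts in all libraries.

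KLF13, which regulates the chemokine CCL5 in T cells and is broadly expressed, lies on chromosome 15 (31326855 to 31435665, plus strand). It was at 87.5 and 76.7 CPM in WT and 109 and 102 CPM in d27, so the groups did not overlap but the lower d27 library was only 1.16 times the higher WT library. The log2 fold change was 0.36 ± 0.23. KLF13 and KLF7 have the longest annotated exon sequence of the 10 (9409 and 9262 bases, against 2018 to 6139 for the others).

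KLF9 and KLF11 overlapped between the groups. KLF9, induced by thyroid hormone and glucocorticoids in neural cells, lies on chromosome 9 (70384597 to 70414624, minus strand). It had 13.3 and 6.96 CPM in WT and 8.92 and 10.4 in d27, with both d27 values inside the WT range and a log2 fold change of -0.07 ± 0.42. KLF11, the other TGF-beta-induced member, which also controls monoamine oxidase genes, lies on chromosome 2 (10042849 to 10054836, plus strand). It had 10.0 and 5.51 CPM in WT and 8.00 and 5.76 in d27, with a log2 fold change of -0.17 ± 0.46. An SE of that size leaves a change of moderate size in either direction undetectable for both at this depth of 53 to 164 counts per library. KLF10 and KLF11 are close relatives, yet KLF10 was 3.52-fold higher with d27 and KLF11 was at 0.891 of its WT level.

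**Figure D2:**
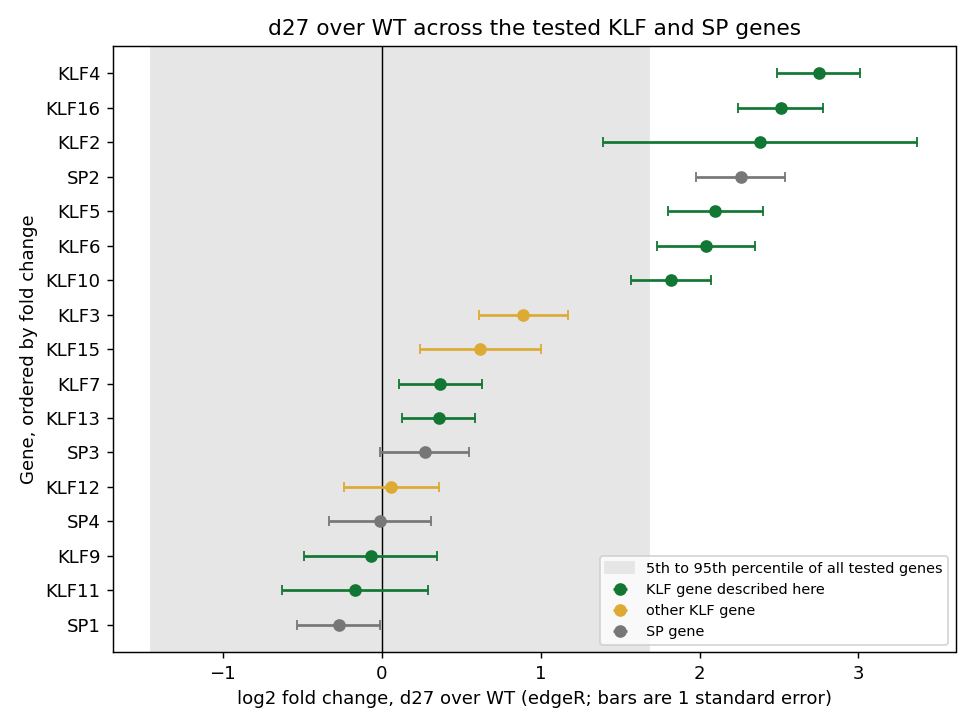
Log2 fold change of d27 over WT for the 17 KLF and SP genes tested, from edgeR, with bars of 1 SE. The grey band runs from -1.45 to 1.68, the 5th to 95th percentile of all 14909 tested genes. KLF4, KLF16, KLF2, SP2, KLF5, KLF6 and KLF10 lay above the band, with KLF2 carrying the widest bar.

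Per kilobase of annotated exon, the order of the members changed between the constructs. In WT the order from the highest was KLF10 (30.4 ± 3.90 CPM per kb), KLF6 (12.0 ± 3.66), KLF16 (10.2 ± 2.40), KLF13 (8.73 ± 0.812), KLF7 (6.33 ± 1.37), KLF4 (4.91 ± 0.693), KLF5 (4.63 ± 0.0601), KLF9 (1.96 ± 0.868), KLF11 (1.69 ± 0.694) and KLF2 (0.305 ± 0.286), each SD over 2 libraries. Values of the 2 libraries overlapped between the neighbours KLF6 and KLF16, KLF16 and KLF13, KLF7 and KLF4, KLF4 and KLF5, and KLF9 and KLF11. In d27 it was KLF10 (107 ± 10.6), KLF16 (58.4 ± 1.70), KLF6 (49.1 ± 11.0), KLF4 (33.0 ± 0.939), KLF5 (19.9 ± 6.01), KLF13 (11.2 ± 0.558), KLF7 (8.16 ± 1.14), KLF9 (1.87 ± 0.203), KLF2 (1.60 ± 0.929) and KLF11 (1.50 ± 0.344). There, only the neighbours KLF9 and KLF2, and KLF2 and KLF11, overlapped. By their means, KLF4 and KLF5 stood below KLF13 and KLF7 with WT and above them with d27. KLF4 and KLF7 were not apart in WT, where replicate 2 had 5.40 CPM per kb of KLF4 and 5.36 of KLF7.

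The make-up of the family shifted accordingly. KLF10 took 28.1% and 29.9% of the members' summed CPM in WT and 32.6% and 33.3% in d27. KLF13 took 18.6% and 20.7% in WT and 7.75% and 8.50% in d27, and KLF7 14.4% and 13.4% against 5.91% and 5.70%. KLF4 went the other way, from 3.43% and 5.34% to 8.40% and 10.3%, and KLF16 from 7.49% and 6.83% to 12.5% and 14.2%. The 5 members called higher made up 61.9% and 62.4% of the sum in WT and 85.0% and 84.1% in d27. For this sum, replicates lay within 1 percentage point of each other. Single genes differed by more, such as KLF6 with 19.0% and 15.6% in WT and 24.8% and 21.2% in d27. These 5 were set apart by that call in the same libraries, so their larger share in d27 followed from the choice and nothing is read from it. A share of this kind can fall while a gene's own CPM does not, and the CPM of KLF13 and KLF7 was not lower with d27.

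**Figure D3:**
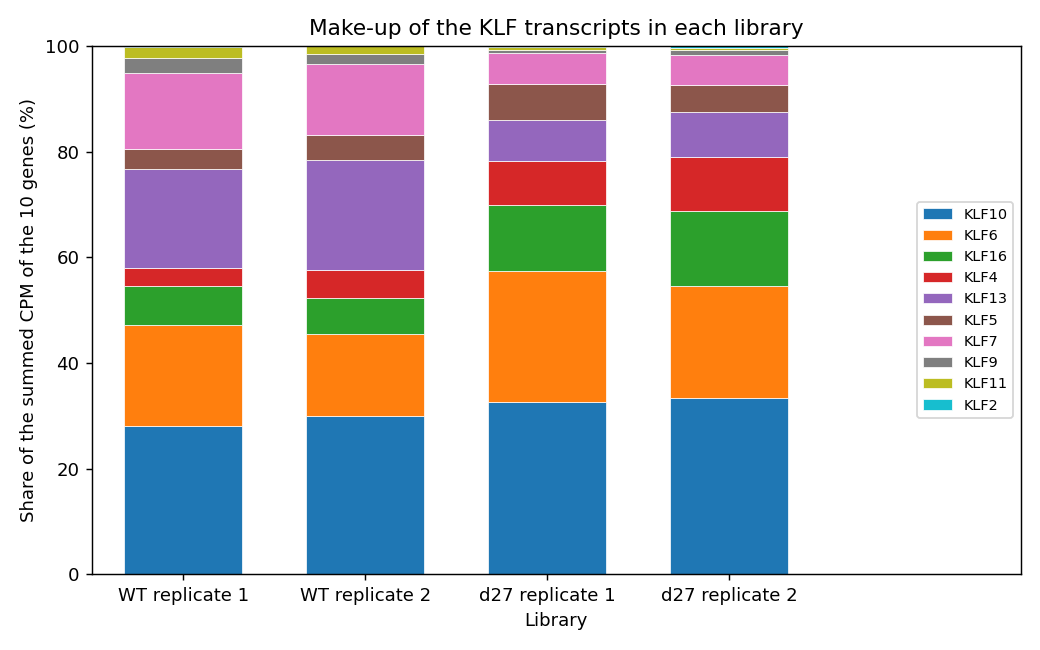
Share of each gene in the summed CPM of the 10 KLF transcripts, as stacked bars in percent for each of the 4 libraries. KLF13 and KLF7 took 18.6% and 14.4% in WT replicate 1 and 7.75% and 5.91% in d27 replicate 1, while KLF4 and KLF16 took more in both d27 libraries than in either WT library.

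Across settings the members' folds are again a description, since all of them use the libraries the genes were chosen on. KLF4 ran from 2.49 to 2.92 on the log2 scale over 11 alternatives, KLF16 from 2.31 to 2.82, KLF5 from 1.77 to 2.41, KLF6 from 1.78 to 2.43 and KLF10 from 1.52 to 2.00. All 5 were lower with the offset for GC content and exon length than without it. Their values were then 2.49 for KLF4, 2.36 for KLF16, 1.77 for KLF5, 1.88 for KLF6 and 1.52 for KLF10. For KLF4 and KLF10 these were the lowest of all settings, and KLF5 had 1.77 without d27 replicate 1 as well. KLF7 stayed between 0.19 and 0.65 and KLF13 between 0.29 and 0.59. KLF9 ran from -0.44 to 0.51 and KLF11 from -0.51 to 0.37. KLF9 had a value above 0 without WT replicate 1 and without d27 replicate 1, and KLF11 without WT replicate 1 and without d27 replicate 2, so neither has a direction here.

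**Figure D4:**
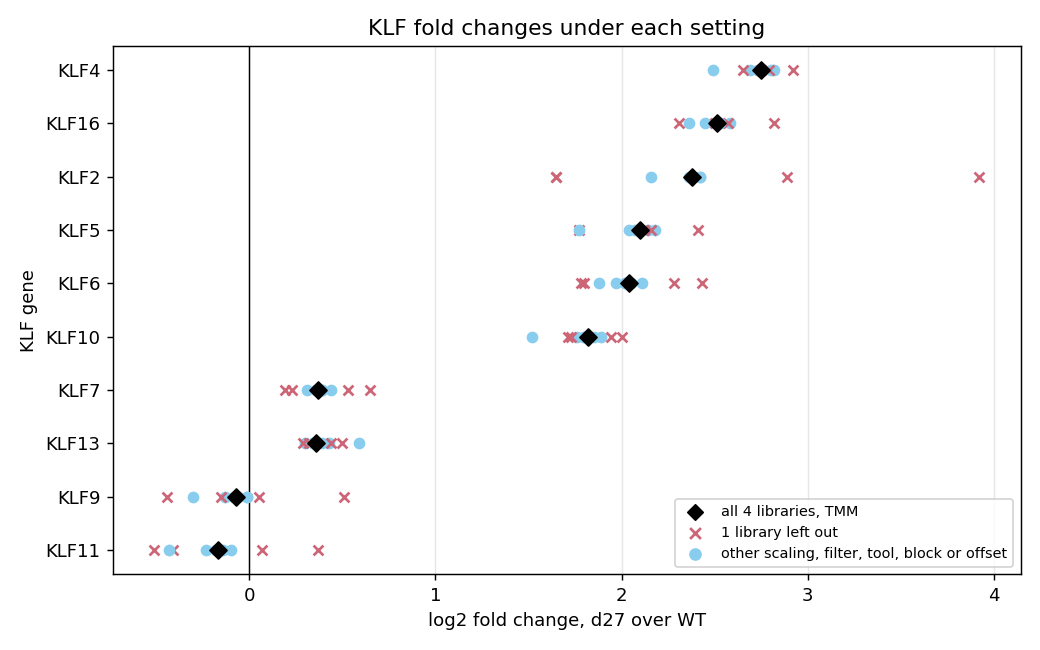
Log2 fold change of d27 over WT for each KLF gene with all 4 libraries and TMM (black diamonds), with 1 library left out (red crosses) and with another scaling, filter, tool, replicate block or offset (blue circles). KLF4, KLF16, KLF5, KLF6 and KLF10 stayed at or above 1.52 in all, and KLF9 and KLF11 fell on both sides of 0.

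Of the 8 KLF genes outside the 10, 3 had enough counts to be tested, and they had been passed over with their values known. KLF3, a CTBP-binding repressor, had 59.3 and 42.2 CPM in WT and 107 and 80.8 in d27 (log2 fold change 0.89 ± 0.28). It passed with DESeq2, with no filter, with a replicate block and without WT replicate 1 or d27 replicate 2, and did not pass with all 4 libraries in edgeR. KLF15 (0.62 ± 0.38) and KLF12 (0.06 ± 0.30) had 6.03 to 12.0 and 25.4 to 39.2 CPM. KLF1, KLF8, KLF14, KLF17 and KLF18 had at most 10 counts in any library, and KLF18 had 0 in all.

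The SP genes encode the closest relatives of the KLF proteins, and several of these bind the same GC boxes. Of the 9, 4 were tested, 1 rose and none fell, beside 8.00% of all tested genes called higher and 3.70% lower. SP2, which binds promoters of cell-cycle genes, had 37.7 and 57.2 CPM in WT and 237 and 218 in d27, and the lower d27 library was 3.82 times the higher WT library. It rose 4.80-fold (log2 2.26 ± 0.28 SE, edgeR adjusted p = 0.00751), with adjusted p-values up to 0.00876 over the alternatives. SP1, the founding member (log2 fold change -0.27 ± 0.26, edgeR adjusted p = 0.526), SP3 (0.27 ± 0.28, 0.546) and SP4 (-0.01 ± 0.32, 0.985) did not pass. SP2 shares its locus with SP2-AS1 on the opposite strand (24 to 86 counts per library), with no shared exon bases.

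Genes that act with or upstream of the family mostly did not pass the test. Of 11 cofactors, 1 rose and 10 did not pass, with a median log2 fold change of 0.15 beside -0.00 for all tested genes. The share called higher was 8.00% over all tested genes, beside which the counts of this and the next lists stand. HDAC3, a histone deacetylase that works in corepressor complexes, rose from 46.0 and 41.6 CPM in WT to 85.4 and 108 in d27 (log2 1.14 ± 0.25 SE, edgeR adjusted p = 0.0300). Leaving out WT replicate 2 ended the HDAC3 call (adjusted p = 0.0584), as did leaving out d27 replicate 2 (0.0811). The corepressor SIN3A itself was at 214 and 244 CPM in WT and 151 and 155 in d27 and fell short of the threshold (-0.58 ± 0.23, edgeR adjusted p = 0.131). Of 6 ubiquitin ligases that act on KLF proteins, VHL, the tumour suppressor that also marks HIF for decay, rose from 19.7 and 20.4 to 73.5 and 74.4 CPM (log2 1.88 ± 0.25 SE, edgeR adjusted p = 0.00900). The other 5 missed the threshold, and the list median was 0.32.

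The kinase ERK5, encoded by MAPK7, and the MEF2 factors it activates switch on KLF2 and KLF4 in endothelium. Of 8 genes on this axis 6 were tested, 1 rose and 5 did not pass, with all 6 values above 0 (median 0.65). Among all 14909 tested genes, 8.00% were called higher and 7453 had a value above 0. MEF2D had 115 and 72.5 CPM in WT and 285 and 264 in d27 (log2 1.55 ± 0.29 SE, edgeR adjusted p = 0.0188), and the lower d27 library was 2.30 times the higher WT library. MAPK7 was at 20.9 and 23.6 CPM in WT and 23.9 and 27.9 in d27 and did not pass (edgeR adjusted p = 0.639). MEF2B and MEF2C had too few counts to be tested.

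TGF-beta induces KLF10 and KLF11. Of 13 genes of this pathway, 2 rose, none fell and 11 did not pass (median 0.41, with 12 of 13 values above 0). Over all genes tested, 8.00% were called higher and 7453 of 14909 values lay above 0. The ligand TGFB1 had 184 and 146 CPM in WT and 451 and 489 in d27 (log2 1.51 ± 0.25 SE, edgeR adjusted p = 0.0149). SMAD7, the feedback inhibitor, did not pass (0.53 ± 0.41, edgeR adjusted p = 0.418). Of 5 tested glucocorticoid receptor genes and targets, TSC22D3 rose from 3.64 and 8.83 to 32.6 and 34.6 CPM (log2 2.42 ± 0.43 SE, edgeR adjusted p = 0.0178). Its log2 fold change was 3.22 without WT replicate 2 and 1.97 without WT replicate 1, with the call kept in both. The other 4 missed the threshold, and the median was 0.76. Those 4 included NR3C1, the receptor itself (0.04 ± 0.29, edgeR adjusted p = 0.939).

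Of 18 genes that have been described as KLF targets, 15 were tested, 1 rose and 14 did not pass. There were 8 values above 0, 7 below and a median of 0.00, and 8.00% of all tested genes were called higher. CDKN1A, the cell-cycle inhibitor p21 that several KLF proteins activate, rose from 14.1 and 7.90 CPM in WT to 54.5 and 55.7 in d27 (log2 2.32 ± 0.34 SE, edgeR adjusted p = 0.0109). The d27 libraries were nearly equal and the lower was 3.86 times the higher WT library. THBD, NOS3 and CCL5, known targets in endothelium and T cells, had too few counts to be tested. With 2 libraries per group and nothing in the labels on separate cultures, these p-values measure only the spread between the libraries, which may be technical.

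By likeness of pattern over the 4 libraries, the protein-coding genes closest to the members' median profile were CCND3, a D-type cyclin, DHDDS, a dolichol-synthesis enzyme, and POLR1D, an RNA polymerase subunit. The profile, in log2 CPM around each gene's mean, was -0.49 and -1.04 in WT and 0.76 and 0.76 in d27. Their root mean square distances from it were 0.0225, 0.0275 and 0.0294, out of 12280 genes compared. CCND3, DHDDS and POLR1D had log2 fold changes of 1.54, 1.55 and 1.56, while no member had a value between 0.37 (KLF7) and 1.82 (KLF10). The median profile thus lay between the members, and these genes were close to it rather than to a single KLF gene. With so few libraries, close matches of this kind are many and carry no test.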

How the data were processed

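RNA eluted from anti-V5 beads was depleted of ribosomal RNA and made into stranded libraries, per the labels' protocols. Values were the deposited raw read counts per gene, 1 table for each of 4 libraries (2 WT, 2 d27). Per the submitters' processing notes, the authors counted reads with HTSeq on GRCh38 and also used DESeq2; for the aligner, annotation, strand setting and versions, nothing is given in the sources used here. HTSeq's summary entries (25.9% to 47.6% of each table) entered neither library sizes nor tests. Symbols matched 60463 of 60719 identifiers, and 58488 had an entry in GENCODE 29 (places, exon length, GC content).

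Genes passing filterByExpr (minimum count 10, total 15) were tested with edgeR 4.0.16 (R 4.3.3, TMM, glmQLFit robust, glmQLFTest on group), with Benjamini-Hochberg adjustment over all of them. SE is the log2 fold change over the square root of F. The script was tested on simulated data. Alternatives were DESeq2 1.42.0, its size factors, library totals, no filter, at least 50 counts, each library left out, a replicate block, and a loess offset for GC and exon length. The members and lists were chosen with earlier results of these data known. Named genes were all members, the tested KLF and SP genes, and up to 3 called genes per list and direction; some genes of the lists are counted but not reported here by name. Those with no call that the text names, and the marker genes, were named after their values were seen.

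Depth ranged from 8142869 to 18335151 gene counts. A floor of 3 counts covers counting error only. The labels' shared RIP numbers do not say what they mark.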

Additional observations from a re-analysis of the deposited data

How the results depend on the processing

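Of the members, 5 were called higher and none lower in each alternative that kept all 4 libraries. Nothing is read from this, since they were chosen on these libraries. Over all genes, the 1192 higher calls became 1888 with no filter on low counts and ran from 697 to 2715 with 1 library left out. The 551 lower calls became 285 with library totals only, 1231 with DESeq2, 974 with no filter, 1008 with at least 50 counts in each library of 1 group and 959 with an offset for exon length and GC, and ran from 71 to 2136 with 1 library left out. The cause was not tested. With 1 library left out, the lone library of that group is assumed to vary like the other group. With RIP number as a replicate block the calls were 2137 higher and 1438 lower, with the same count of 5 members higher; replicate 1 minus replicate 2 differences correlated at r = 0.0962 across genes between the groups, so the numbers are not shown to pair the libraries. Values that changed sign were those of KLF9 (-0.44 to 0.51 with 1 library left out), KLF11 (-0.51 to 0.37), KLF12 (-0.27 to 0.37) and SP4 (-0.23 to 0.22 with 1 left out, 0.03 with library totals, 0.06 with no filter). None of these 4 was called in any setting. Counts per library limit KLF2 most, and KLF9 and KLF11 next. KLF2 had no value with at least 50 counts in each library of 1 group.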
